A study of Mus musculus with 9 samples.

Results

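The genes described here are the protein-coding genes of proximal mouse Chromosome 12, the stretch from the centromere to 34 Mb. A member is a probeset with 1 gene symbol in the platform's annotation whose gene starts in that stretch in the RefSeq gene table. There were 131 such probesets, for 123 genes, among 41345 on the array. Of 157 protein-coding genes that the table places there, the other 34 have no member probeset, and 5 genes have several (*Ywhaq* 4, *Atxn7l1* 3, and *Sdc1*, *Rrm2* and *Itgb1bp1* 2 each). The choice of members used no expression value. The lungs came from 9 mice, 3 of each strain, all naïve and untreated. By the study's methods RNA was extracted from a portion of the lung tissue, which the labels call whole lung. CSS12 (C57BL/6J-Chr12A/J/NaJ) is a chromosome substitution strain, in which Chromosome 12 comes from A/J and the rest of the genome from C57BL/6J. BcA86 is a recombinant congenic strain, mostly C57BL/6J, with A/J segments on several chromosomes. C57BL/6J is the background strain of both. Earlier genotyping that the study cites puts the A/J segment of BcA86 from a point between 33 and 34 Mb to the end of the chromosome, with no build named. Up to that point proximal Chromosome 12 is therefore A/J in the 3 CSS12 mice and C57BL/6J in the 6 mice of BcA86 and C57BL/6J. Of the members, 123 start below 33 Mb, and the last 8 may lie on either side of the point. The arrays give no genotypes.

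Inbred strains differ at many positions of their DNA, and where such a position lies in a promoter, an enhancer or a transcript it can change how much RNA its own copy of a gene gives. Such local effects are commonly seen in comparisons of A/J with C57BL/6J tissues. A substitution strain and a congenic strain share most of their genome with their background strain, so a block that differs between them can be followed gene by gene. The block holds genes of lipid handling (*Apob*, *Lpin1*), nucleotide supply (*Rrm2*, *Cmpk2*), transcription (*Sox11*, *Id2*, *Mycn*, *Dnmt3a*) and antiviral response (*Rsad2*).

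The largest differences lay in a few genes. Against the mean of BcA86 and C57BL/6J, *Sox11*, *Iah1* and *Rnf144a* were lower and *Klhl29* was higher in CSS12. *Sox11*, a transcription factor of embryonic development, fell by 1.27 on the log2 scale, and *Iah1*, named as the homolog of a yeast esterase that splits isoamyl acetate, fell by 0.86. *Klhl29*, a member of the kelch-like family, rose by 0.81, and *Rnf144a*, an E3 ubiquitin ligase, fell by 0.56. All other members lay between -0.37 and 0.71 and did not pass. No member passed between BcA86 and C57BL/6J. These are differences of probe signal, which a variant under a probe can change without a change in RNA. Whether A/J variants lie under the probes of these genes was not tested.

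The reference sequence just before the start of each of these 4 genes is shown because the A/J block holds these starts in CSS12, while the C57BL/6J copy stands in the other strains. Each line gives the 150 bases before the RefSeq start in GRCm38.p6, the C57BL/6J assembly, on the strand of the gene and 5′ to 3′. Capitals mark matches to any of 3 promoter motifs, each searched as written and as its reverse complement. The binding motif of the Sp1 family was searched as GGGCGG and is called the GC box here. The motif known for binding the factor NF-Y was searched as the letters CCAAT. The element that binds the TATA-binding protein in some promoters was searched as the run TATAAA. No match overlapped another.
Sox11, chr12:27342719-27342868, minus strand: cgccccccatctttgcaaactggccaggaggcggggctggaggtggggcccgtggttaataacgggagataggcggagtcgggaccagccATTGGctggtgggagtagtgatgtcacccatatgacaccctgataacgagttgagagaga
Iah1, chr12:21316242-21316391, plus strand: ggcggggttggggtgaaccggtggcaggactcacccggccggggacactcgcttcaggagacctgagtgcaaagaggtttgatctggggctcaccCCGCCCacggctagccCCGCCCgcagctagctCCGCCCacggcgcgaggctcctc
Rnf144a, chr12:26415263-26415412, minus strand: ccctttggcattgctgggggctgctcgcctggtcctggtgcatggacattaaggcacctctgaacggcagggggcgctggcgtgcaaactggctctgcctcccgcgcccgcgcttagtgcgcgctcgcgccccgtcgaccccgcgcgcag
Klhl29, chr12:5375683-5375832, minus strand: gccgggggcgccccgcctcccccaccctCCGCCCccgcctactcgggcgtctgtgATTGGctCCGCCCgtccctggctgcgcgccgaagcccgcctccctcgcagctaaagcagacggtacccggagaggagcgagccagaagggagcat
The window of *Sox11* held 1 CCAAT box and 7 CpG dinucleotides. That of *Iah1* held 3 GC boxes and 13 CpG, that of *Rnf144a* no match and 17 CpG, and that of *Klhl29* 2 GC boxes, 1 CCAAT box and 17 CpG. Of 32851 such windows of the RefSeq table, 28.6% held a GC box, 24.5% a CCAAT box and 7.57% a TATA box, with a median of 4 CpG. The table has windows for 113 of the 123 genes, 140 in all. Of these, 47.1% held a GC box, 21.4% a CCAAT box and 7.86% a TATA box, with a median of 10.5 CpG. The windows of the whole table were not filtered by gene type, while all members are protein-coding, so these sets may not be alike. A match is a run of letters in the reference, and the A/J letters of these windows were not analysed here.

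The values are log2 expression values normalized by the authors with the robust multiarray average method (RMA), so a difference of 1 is a doubling of the signal. All 9 arrays were fitted together in limma. The Benjamini-Hochberg adjustment ran over the 41345 probesets of the table, and members with an adjusted p below 0.05 are said to have passed. The medians of the arrays lay between 6.082 and 6.128. The mouse CSS12 replicate 2, stood above its strain in the genes of cell division (*Top2a* at 6.91, 7.92 and 6.82 in CSS12 replicates 1, 2 and 3) and in *Slc26a4*. The within-strain SD had a median of 0.1 over the members and 0.14 over all probesets. Of the members, 100 lay at or above the median of all probeset means and 31 under it, and none was left out. The 11 whole lung markers, surfactant proteins among them, had a mean level of 11.89 to 11.98 in CSS12, 11.91 to 12.02 in BcA86 and 11.87 to 11.95 in C57BL/6J. The level of *Xist* was 4.35 to 4.69 and that of *Eif2s3y*, *Kdm5d* and *Uty* 8.05 to 8.58 in the 9 mice.

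**Figure D1:**
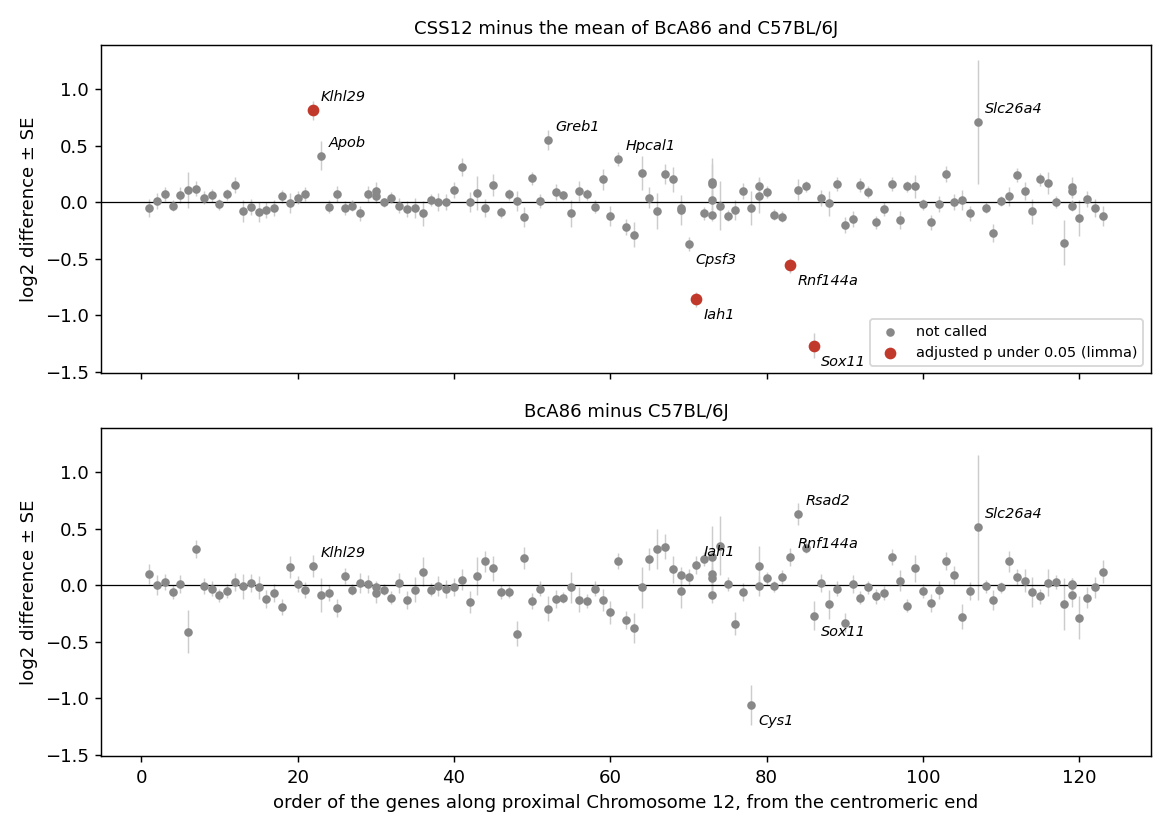
Log2 difference with its SE for each of the 131 probesets (y axis), in the order of the 123 genes from the centromeric end (x axis), for CSS12 minus the mean of BcA86 and C57BL/6J (top) and for BcA86 minus C57BL/6J (bottom). Red points passed an adjusted p under 0.05: *Klhl29* at 0.81 and *Iah1*, *Rnf144a* and *Sox11* at -0.86, -0.56 and -1.27 in the top panel, and none in the bottom panel.

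CSS12 was first set against the mean of both other strains, which puts the A/J block against the C57BL/6J block with each strain at equal weight. CSS12 also differs from C57BL/6J over the rest of Chromosome 12, and from BcA86 in the other A/J segments of BcA86. Effects of those regions and of the block cannot be told apart in this comparison. Of the 131 probesets, 4 passed, 1 higher and 3 lower, beside 0.31% of all probesets (0.213% higher and 0.0967% lower). Cyber-T, the test that the study's methods name, called 10 members, beside 3.44% of all probesets. It was run here on the adjusted p without the study's fold limits. In this comparison it took the 6 mice of BcA86 and C57BL/6J as 1 group. At an unadjusted p under 0.05 there were 28, which is 21.4% of the members beside 11.8% of all probesets. The absolute log2 difference had a median of 0.09 over the members and 0.09 over all probesets. It was over 0.5 in 6 members, *Sox11*, *Iah1*, *Klhl29*, *Slc26a4*, *Rnf144a* and *Greb1*, which is 4.58% beside 3.74% of all probesets. The members that passed thus lay among neighbours most of which differed little.

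*Sox11* (probeset 17280350) belongs to the SoxC group of transcription factors, which act in neuronal and organ development. Its log2 values were 5.88, 5.33 and 5.73 in CSS12, 6.79, 6.80 and 6.74 in BcA86, and 6.95, 7.13 and 7.06 in C57BL/6J. All CSS12 values lay below all values of the other strains, and the BcA86 values below those of C57BL/6J. The difference was -1.27 ± 0.11 (SE) against the mean of both strains, a fold of 0.415, with a 95% interval of -1.53 to -1.01 and an adjusted p of 0.0101 (limma). It was -1.40 ± 0.13 against C57BL/6J (adjusted p = 0.0091) and -1.13 ± 0.13 against BcA86 (adjusted p = 0.0152). BcA86 minus C57BL/6J was -0.27, with an interval of -0.57 to 0.03 (adjusted p = 0.524). Without CSS12 replicate 3 the 3 CSS12 comparisons had adjusted p of 0.0644, 0.0584 and 0.0635. The call against C57BL/6J was also lost without C57BL/6J replicate 3 (0.0514), and that against BcA86 without BcA86 replicate 1 (0.0574) or 2 (0.0654).

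*Iah1* (probeset 17274471) was the member with the smallest adjusted p. Its log2 values were 7.81, 7.51 and 7.72 in CSS12, 8.63, 8.58 and 8.67 in BcA86, and 8.40, 8.44 and 8.51 in C57BL/6J. The groups did not overlap, with CSS12 lowest and BcA86 highest. The difference was -0.86 ± 0.07 against the mean of both strains, a fold of 0.552 with an interval of -1.02 to -0.69 (adjusted p = 0.0079). It was -0.77 ± 0.08 against C57BL/6J (adjusted p = 0.0157) and -0.95 ± 0.08 against BcA86 (adjusted p = 0.00465). BcA86 minus C57BL/6J was 0.18, with an interval of -0.01 to 0.37 (adjusted p = 0.511). The call against BcA86 was kept without each array in turn, with a highest adjusted p of 0.0294. Without CSS12 replicate 3, the adjusted p was 0.0615 against the mean of both strains and 0.0728 against C57BL/6J. Without C57BL/6J replicate 1, 2 or 3 it was 0.0538, 0.0634 and 0.0678 against C57BL/6J.

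*Rnf144a* (probeset 17280315) codes for a RING-between-RING ubiquitin ligase. Its log2 values were 9.86, 9.78 and 9.73 in CSS12, 10.36, 10.55 and 10.50 in BcA86, and 10.25, 10.13 and 10.28 in C57BL/6J. The groups again did not overlap, in the same order as for *Iah1*. The difference was -0.56 ± 0.07 against the mean of both strains (fold 0.68, adjusted p = 0.0224) and -0.68 ± 0.08 against BcA86 (adjusted p = 0.0124). Against C57BL/6J it was -0.43 ± 0.08, which did not pass (adjusted p = 0.0933), and BcA86 minus C57BL/6J was 0.25 ± 0.08 (adjusted p = 0.308). The call against the mean was kept without C57BL/6J replicate 2 or BcA86 replicate 1. Leaving out CSS12 replicate 1, 2 or 3 gave an adjusted p of 0.0765, 0.11 or 0.131, leaving out BcA86 replicate 2 or 3 gave 0.0523 or 0.058, and leaving out C57BL/6J replicate 1 or 3 gave 0.06 or 0.055. The call against BcA86 was lost without CSS12 replicate 2 (0.0667) or 3 (0.0729).

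*Klhl29* (probeset 17279893) has a kelch domain, and proteins of its family commonly act as substrate adaptors of cullin ubiquitin ligases. Its log2 values were 8.12, 7.93 and 8.16 in CSS12, 7.28, 7.41 and 7.32 in BcA86, and 7.11, 7.34 and 7.06 in C57BL/6J. All CSS12 values lay above the other 6, while BcA86 and C57BL/6J overlapped. The difference was 0.81 ± 0.08 against the mean of both strains, a fold of 1.76 with an interval of 0.62 to 1.00 (adjusted p = 0.0139). It was 0.90 ± 0.10 against C57BL/6J (adjusted p = 0.0149) and 0.73 ± 0.10 against BcA86 (adjusted p = 0.0219). BcA86 minus C57BL/6J was 0.17, with an interval of -0.05 to 0.39 (adjusted p = 0.593). The call against the mean was lost without CSS12 replicate 1 (0.0765) or 3 (0.0932). Against C57BL/6J it was lost without those arrays (0.0758 and 0.0728) and without C57BL/6J replicate 1 (0.0668) or 3 (0.0611). Against BcA86 it was lost without CSS12 replicate 1 (0.0551) or 3 (0.106), or BcA86 replicate 1 (0.0661), 2 (0.073) or 3 (0.0661).

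*Greb1* (probeset 17280086), known as an estrogen-induced gene in human breast cancer cells, passed against BcA86 and not in the other comparisons. Its log2 values were 5.92, 5.67 and 6.11 in CSS12, 5.31, 5.19 and 5.22 in BcA86, and 5.45, 5.41 and 5.49 in C57BL/6J. CSS12 was highest and BcA86 lowest, with no overlap. The probeset is 1 of the 31 members under the median of all probeset means. The difference was 0.66 ± 0.11 against BcA86 (fold 1.58, adjusted p = 0.0415), 0.45 ± 0.11 against C57BL/6J (adjusted p = 0.198) and 0.55 ± 0.09 against the mean of both (adjusted p = 0.0599). Of the 9 fits that left out 1 array, the call was kept in the fit without CSS12 replicate 2. Leaving out CSS12 replicate 1 or 3 gave an adjusted p of 0.0828 or 0.114. With BcA86 replicate 1, 2 or 3 left out it was 0.0804, 0.126 or 0.103, and with C57BL/6J replicate 1, 2 or 3 left out 0.0717, 0.076 or 0.079.

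**Figure D2:**
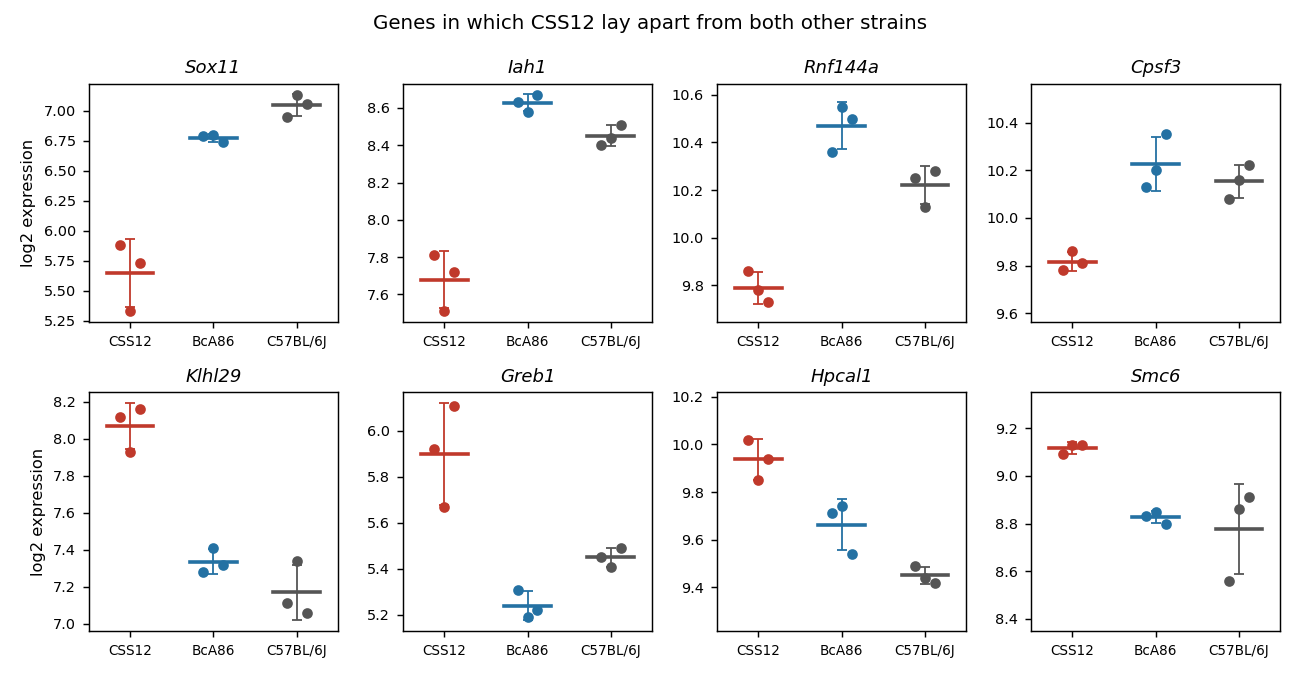
Log2 expression values (y axis) of each mouse in CSS12, BcA86 and C57BL/6J (x axis), with the mean and the SD of 3 mice, for *Sox11*, *Iah1*, *Rnf144a*, *Cpsf3*, *Klhl29*, *Greb1*, *Hpcal1* and *Smc6*. In each panel the 3 CSS12 mice lie apart from the other 6, and the y axes differ between panels and do not start at 0.

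*Cpsf3* and *Hpcal1* came next by p. *Cpsf3*, the endonuclease that cleaves pre-mRNA at its 3′ end, had log2 values of 9.78, 9.86 and 9.81 in CSS12, 10.13, 10.20 and 10.35 in BcA86, and 10.08, 10.16 and 10.22 in C57BL/6J. Its difference was -0.37 ± 0.06 against the mean of both strains (adjusted p = 0.0621) and -0.41 ± 0.07 against BcA86 (adjusted p = 0.0553). *Cpsf3* and *Iah1* are neighbours in the gene order, in places 70 and 71. On their other sides, *Adam17* differed by -0.10 and the next place before *Cpsf3* is held by *Itgb1bp1*, of which neither probeset was called. *Hpcal1*, a calcium sensor of the visinin-like family, had log2 values of 10.02, 9.85 and 9.94 in CSS12, 9.71, 9.74 and 9.54 in BcA86, and 9.49, 9.44 and 9.42 in C57BL/6J. The 3 strains of *Hpcal1* did not overlap, and its difference was 0.38 ± 0.06 against the mean of both (adjusted p = 0.0621) and 0.48 ± 0.07 against C57BL/6J (adjusted p = 0.0636).

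No gene next to a called one passed. *Rnf144a* and *Sox11* stand in places 83 and 86, with *Rsad2* (0.11) and *Cmpk2* (0.14) between them, *Id2* (-0.13) before and *Dcdc2c* (0.04) after. *Klhl29*, in place 22, stands between *Atad2b* (0.07) and *Apob* (0.41), and *Greb1* between *Ntsr2* (0.01) and *E2f6* (0.09). *Apob*, the structural protein of low density lipoproteins, had log2 values of 5.51, 6.12 and 5.84 in CSS12, 5.32, 5.43 and 5.34 in BcA86, and 5.56, 5.51 and 5.28 in C57BL/6J. CSS12 overlapped C57BL/6J, and the difference of 0.41 ± 0.13 did not pass (adjusted p = 0.244).

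In 18 of the 131 probesets all 3 CSS12 values lay outside the range of the other 6 mice, 10 above and 8 below, which is 13.7% of the members beside 6.33% of all probesets (3.3% above and 3.04% below). Above lay *Itsn2*, *Klhl29*, *Smc6*, *Lpin1*, *Greb1*, *Hpcal1*, *Lamb1*, *Hbp1*, *Ccdc71l* and 1 of the 3 probesets of *Atxn7l1*. Below lay *Cpsf3*, *Iah1*, *Taf1b*, *Kidins220*, *Rnf144a*, *Sox11*, *Eipr1* and *Dus4l*. The share was 8.84% of 475 probesets of the rest of Chromosome 12 and 6.58% of 19579 of the other chromosomes. Without CSS12 replicate 1 the count was 28, or 21.4% of the members, beside 12.9% of all probesets, since fewer mice overlap less often in any probeset. Most of the 18 differed by little: *Smc6*, a subunit of the SMC5/6 complex of DNA repair, had 9.09, 9.13 and 9.13 in CSS12, 8.83, 8.85 and 8.80 in BcA86, and 8.56, 8.86 and 8.91 in C57BL/6J, a difference of 0.31 ± 0.08 (adjusted p = 0.151).

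Against C57BL/6J alone, 3 members passed, *Klhl29* higher and *Iah1* and *Sox11* lower, beside 0.22% of all probesets (0.143% higher and 0.0774% lower). Cyber-T called 11, beside 2.61%. There were 26 at an unadjusted p under 0.05, 19.8% of the members beside 10.7% of all probesets. Against BcA86, which shares the A/J segment beyond the block, 5 members passed, 2 higher (*Klhl29*, *Greb1*) and 3 lower (*Iah1*, *Rnf144a*, *Sox11*), beside 0.716% of all probesets (0.271% higher and 0.445% lower). Cyber-T called 11, beside 5.26%. There were 21 at an unadjusted p under 0.05, 16% beside 11.9%. Both comparisons use the same CSS12 arrays. A fit of the compared strains alone, with fewer arrays behind the variance, called 0 members against C57BL/6J and 1, *Iah1*, against BcA86. The share of all probesets called in that fit is not given here, so these counts do not set the members apart from other probesets.

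BcA86 and C57BL/6J carry the same copy of the block, apart from its last members, so their comparison gives how far its genes differed between strains of 1 local genotype. None of the 131 probesets passed in limma, beside 0.375% of all probesets, while 24 had an unadjusted p under 0.05, 18.3% beside 10.4%. The Cyber-T test called 3, beside 2.45% of all probesets. The absolute difference had a median of 0.09 over the members and 0.1 over all probesets. It exceeded 0.5 in 3 members, 2.29% beside 3.84% of all probesets. In CSS12 minus C57BL/6J it did so in 5 members, 3.82% beside 3.84% of all probesets. The share at an unadjusted p under 0.05 thus lay above the background also where the block does not differ.

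The 3 members with the smallest p in that comparison were *Rsad2*, *Cmpk2* and *Cys1*. *Rsad2* codes for viperin, an antiviral enzyme induced by interferon, and had 8.05, 8.25 and 8.33 in CSS12, 8.31, 8.51 and 8.42 in BcA86, and 7.65, 7.89 and 7.82 in C57BL/6J. Both CSS12 and BcA86 lay above C57BL/6J without overlap. BcA86 minus C57BL/6J was 0.63 ± 0.10 (adjusted p = 0.0554), and CSS12 minus C57BL/6J was 0.42. *Cmpk2*, its neighbour and a mitochondrial nucleotide kinase that interferon also induces, had 9.14, 9.23 and 9.22 in CSS12, 9.18, 9.24 and 9.24 in BcA86, and 8.92, 8.88 and 8.87 in C57BL/6J. Its difference was 0.33 ± 0.05 for BcA86 minus C57BL/6J (adjusted p = 0.0639) and 0.31 for CSS12 minus C57BL/6J. *Cys1*, a cilium protein that is mutated in a mouse model of polycystic kidneys, had 7.31, 7.05 and 7.15 in CSS12, 6.88, 6.71 and 6.47 in BcA86, and 7.35, 8.0 and 7.88 in C57BL/6J. It was lowest in BcA86, with -1.06 ± 0.18 for BcA86 minus C57BL/6J (adjusted p = 0.0709) and -0.57 for CSS12 minus C57BL/6J. Cyber-T called *Rsad2*, *Cmpk2* and *Cys1* in BcA86 minus C57BL/6J (adjusted p = 0.000269, 0.0454 and 0.000232), beside 2.45% of all probesets. Limma with trended and robust variances, or without the dimmer probesets, also called these 3.

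**Figure D3:**
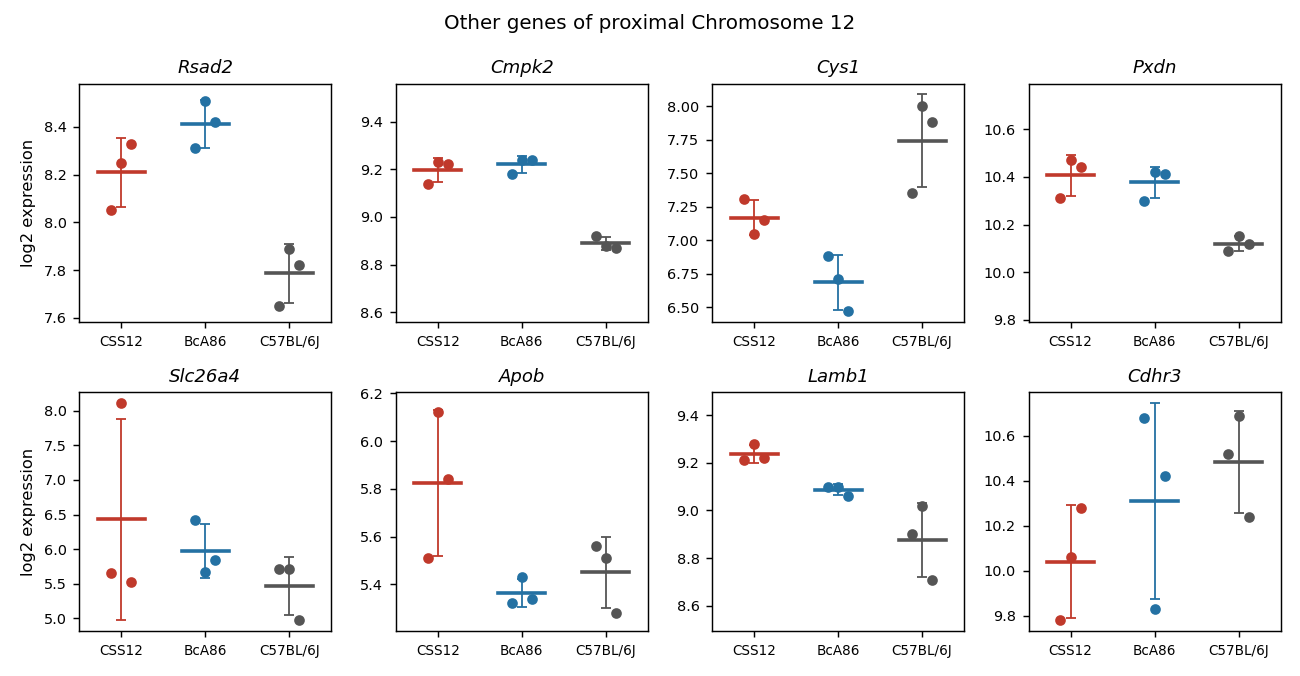
Log2 expression values (y axis) of each mouse in CSS12, BcA86 and C57BL/6J (x axis), with the mean and the SD of 3 mice, for *Rsad2*, *Cmpk2*, *Cys1*, *Pxdn*, *Slc26a4*, *Apob*, *Lamb1* and *Cdhr3*. CSS12 and BcA86 lie together above C57BL/6J in *Rsad2*, *Cmpk2* and *Pxdn*, and 1 CSS12 mouse stands alone at 8.11 in *Slc26a4*; the y axes do not start at 0.

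The share of probesets at an unadjusted p under 0.05 was set beside that of the rest of Chromosome 12, which by the cited genotypes is A/J in CSS12 and largely so in BcA86. In CSS12 minus C57BL/6J it was 19.8% in the block, 16.2% in the rest of Chromosome 12 and 10.5% on other chromosomes. In CSS12 minus BcA86 it was 16% in the block, 8.42% in the rest and 10% on other chromosomes. In BcA86 minus C57BL/6J it was 18.3%, 15.8% and 9.99%, in the same order. By adjusted p, CSS12 minus BcA86 called 5 of 131 in the block (3.82%) and 2 of 475 in the rest (0.421%). The differences between these shares are a description and were not tested.

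**Figure D4:**
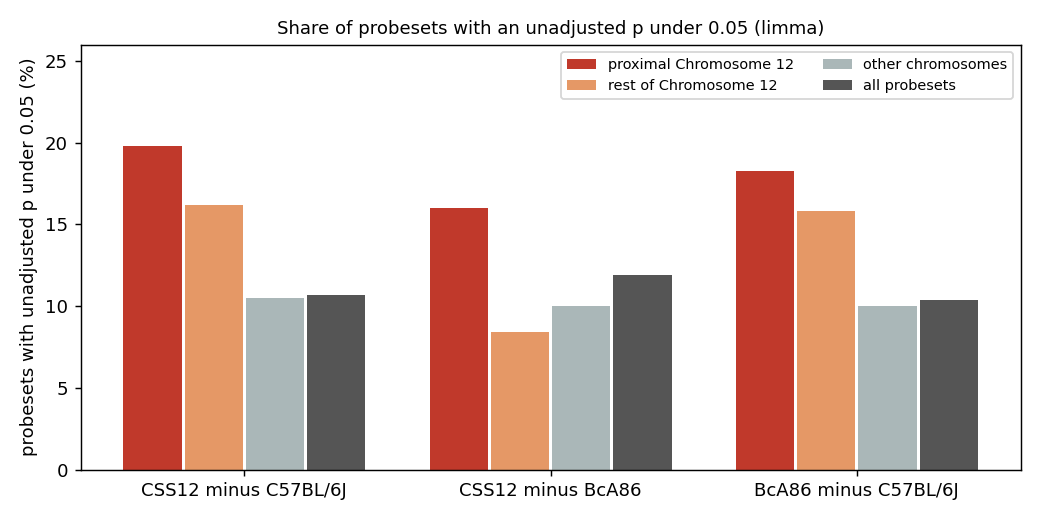
Percent of probesets with an unadjusted p under 0.05 in limma (y axis, from 0) in the 3 comparisons of strains (x axis), for proximal Chromosome 12 (131 probesets), the rest of Chromosome 12 (475), the other chromosomes (19579) and all 41345 probesets. The bars of proximal Chromosome 12 are at 19.8%, 16% and 18.3%, and those of the rest of the chromosome at 16.2%, 8.42% and 15.8%.

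Ordered by role, the differences against the mean of both strains were spread over groups and each group's median was near 0, between -0.08 and 0.13 over 12 lists, beside 0.01 over all probesets. Among genes of lipid handling and fatty acid oxidation, 1 of 5 probesets passed (*Iah1*, whose lipid role in mouse is taken from its esterase family), and the median was 0.09. *Lpin1*, a phosphatidate phosphatase of triglyceride synthesis, had 9.72, 9.77 and 9.80 in CSS12, 9.56, 9.50 and 9.39 in BcA86, and 9.6, 9.72 and 9.56 in C57BL/6J. Its CSS12 values lay above the others, by little for the lowest of them,, with a difference of 0.21 that did not pass. None of 8 probesets of small molecule and redox metabolism passed. There, *Nampt*, the rate-limiting enzyme of NAD salvage, differed by 0.17 and *Pxdn*, a peroxidase that crosslinks collagen IV, by 0.16. *Pxdn* was 0.29 in CSS12 minus C57BL/6J and 0.25 in BcA86 minus C57BL/6J, and neither passed.

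Of 9 probesets of nucleotide supply, DNA repair and cell division none passed, with a median of 0.08, and *Smc6* (0.31) and *Rnaseh1* (-0.15), which removes RNA from RNA:DNA hybrids, differed most. Of 19 probesets of chromatin and transcription 2 passed, *Sox11* and *Klhl29*, and the median was -0.00. *Klhl29* stands in this list by its listing and is not known as a chromatin protein. *Hbp1*, a repressor of the cell cycle, had a difference of 0.24, with all CSS12 mice above the others. Of 10 probesets of RNA processing, ribosome and translation none passed, with a median of -0.08. *Cpsf3* and *Dus4l*, named as a tRNA dihydrouridine synthase (-0.27), differed most. *Rps7*, whose probes may also read its copies elsewhere in the genome, was at -0.20 and is uncertain for that reason.

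Of 7 probesets of hormones, growth factors and receptors none passed. *Colec11*, a soluble lectin of innate immunity, was at 0.16 and *Kidins220*, a scaffold of neurotrophin receptors, at -0.11. Of 19 probesets of GTPase, kinase and calcium signalling 1 passed (*Rnf144a*, a ubiquitin ligase placed in this list), and *Hpcal1* followed. Of 7 of matrix and cell adhesion none passed. *Lamb1*, a laminin chain of basement membranes, had 9.21, 9.28 and 9.22 in CSS12, 9.10, 9.10 and 9.06 in BcA86, and 8.90, 9.02 and 8.71 in C57BL/6J. It followed the order CSS12, BcA86, C57BL/6J without overlap, and its difference of 0.25 ± 0.07 did not pass (adjusted p = 0.194). *Cdhr3*, a cadherin of ciliated airway cells and in humans a receptor of rhinovirus C, had a difference of -0.36 ± 0.20 (adjusted p = 0.547), and its CSS12 and BcA86 mice overlapped.

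Of 7 probesets of ion channels and transporters none passed. *Slc26a4* codes for pendrin, an anion exchanger of airway epithelium, and is in the study's own list of genes. That list was chosen on these arrays, so it is no independent evidence. Its log2 values were 5.65, 8.11 and 5.53 in CSS12, 6.42, 5.67 and 5.84 in BcA86, and 5.71, 5.71 and 4.98 in C57BL/6J. CSS12 replicate 2 stood alone, and the other 8 mice overlapped. The difference was 0.71 ± 0.55 against the mean of both strains (adjusted p = 0.679), and without that mouse it was -0.13. *Tmem18* was at 0.14 in this list. None of 10 probesets of membrane trafficking and protein folding passed, where *Eipr1* (-0.18) and *Trappc12* (0.09) differed most. None of 7 of cilia and microtubule motors passed, where *Efcab10* (-0.14) and *Fam228a* (-0.08) did. In the interferon response list, which holds *Rsad2* and *Cmpk2* alone, the median was 0.13.

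**Figure D5:**
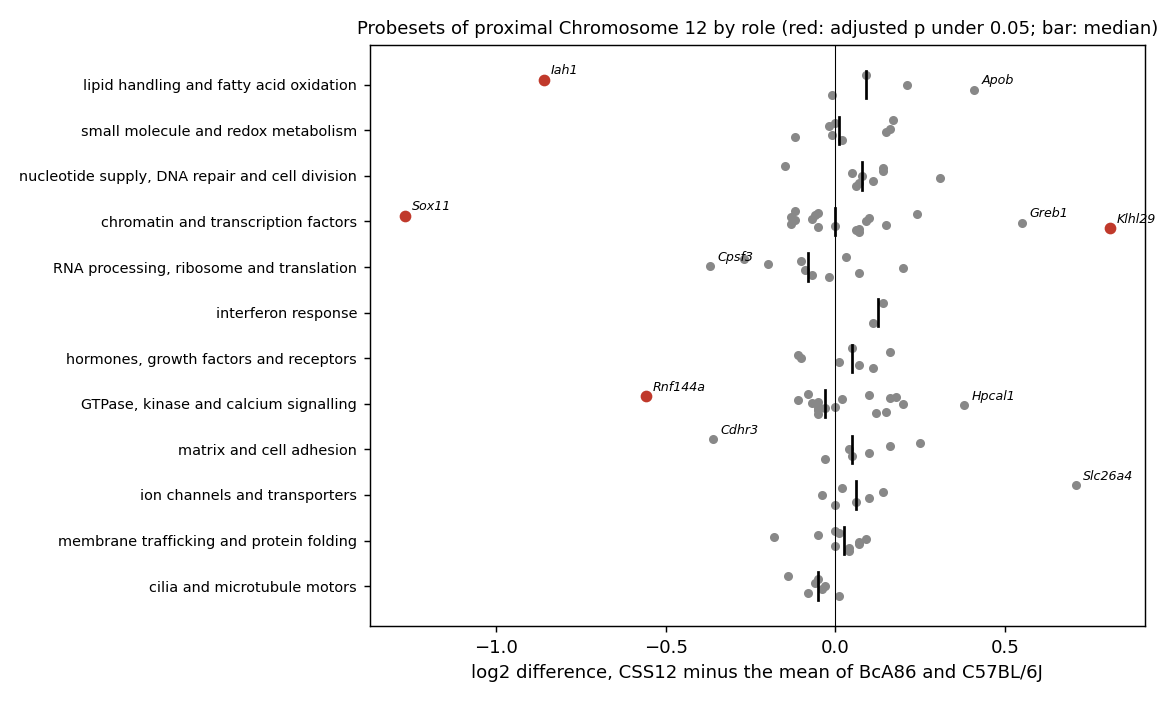
Log2 difference, CSS12 minus the mean of BcA86 and C57BL/6J (x axis), of each probeset in the 12 lists of genes by role (y axis), with the median of each list as a bar. The 4 probesets in red passed an adjusted p under 0.05 (*Iah1*, *Sox11*, *Klhl29*, *Rnf144a*), and the medians lie between -0.08 and 0.13.

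The remaining members of the first 15 by p were *Ccdc71l* (0.20), with all 3 CSS12 mice above the others, and *Gm9222* (-0.22). *Gm9222*, *5730507C01Rik* (-0.29) and *Gm3993* (0.25) may be similar in sequence, so that their probes may read each other. This was not checked, and their values are uncertain. At the limit of the block, the last 3 members were *Twistnb* (0.03), *Ferd3l* (-0.05) and *Twist1* (-0.12), and none passed. Just beyond it, *Hdac9*, a class II histone deacetylase, had 6.47, 6.55 and 6.26 in CSS12, 6.51, 6.39 and 6.56 in BcA86, and 6.83, 7.31 and 7.09 in C57BL/6J. CSS12 and BcA86 overlapped and both lay below C57BL/6J, with -0.65 for CSS12 minus C57BL/6J and -0.59 for BcA86 minus C57BL/6J, neither of which passed. *Prps1l1* (-0.44 and -0.12) and *Snx13* (0.23 and 0.18) follow in the same comparisons. With the limit at 33 Mb, which leaves out the members that may be A/J in BcA86, 123 probesets were left and the counts of calls were unchanged in the 4 comparisons.

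Markers of other cells are given beside these results, and none of the genes in the lists given here passed. Lists of airway epithelium, adipose and liver genes had medians of 0.09, 0.06 and -0.00 against the mean of both strains. Those of thymus and heart muscle genes had -0.27 and -0.23. In the airway list *Muc5b* was at 1.09 (adjusted p = 0.597, limma). The erythroid list had 1 measured gene, *Slc4a1*, at 0.07. Against C57BL/6J, *Slc4a1* was at 0.36 in CSS12 and 0.58 in BcA86. The 4 neutrophil genes had a mean level of 6.13 to 6.83 in CSS12, 7.96 to 8.21 in BcA86 and 7.40 to 8.62 in C57BL/6J, with a median difference of -1.56. Each had an unadjusted p under 0.05, and 0 of 4 passed in limma. The 3 measured B cell genes had 7.75 to 8.44 in CSS12, 8.89 to 9.35 in BcA86 and 8.47 to 9.21 in C57BL/6J, a median of -0.81 and 0 of 3 called. The 4 genes of cell division had 7.30 to 8.20 in CSS12, 7.26 to 7.47 in BcA86 and 6.76 to 6.94 in C57BL/6J, a median of 0.49. The CSS12 and BcA86 ranges overlapped, and without CSS12 replicate 2 the median was 0.23. The 4 immediate early genes had 7.78 to 8.03 in CSS12, 7.75 to 8.22 in BcA86 and 8.21 to 9.58 in C57BL/6J, a median of -0.40, with CSS12 inside the range of BcA86. The part of these cells in the differences of *Sox11*, *Iah1*, *Rnf144a*, *Klhl29* and *Greb1* was not tested. In whole lung, fewer cells of a type and less RNA per cell cannot be told apart.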

How the data were processed

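RNA from a portion of the lung tissue of 9 mice, 3 per strain, was hybridized to Affymetrix Gene 2.0 ST arrays, 1 per mouse. The authors used FlexArray for RMA normalization, and their deposited log2 values were taken without further normalization or filter. The genome build of the array's positions is not given in the sources used here. Members were matched to RefSeq genes (GRCm38.p6) by Entrez identifier (129) or symbol (2). A/J and C57BL/6J sequence under the probes was not compared. The 3 strains were fitted in R 4.3.3 with limma 3.58.1 without a block, with Benjamini-Hochberg adjustment over all probesets and a threshold of 0.05. The code was tested on simulated data. The number of arrays limits the precision. Named are members called in a CSS12 comparison, the first 15 by p, the first 3 between BcA86 and C57BL/6J, 2 per role list, the study's listed gene and the 3 genes on each side of the limit. Neighbours in gene order, uncertain genes and members that lay apart were chosen after their values were seen. A planned ranking of members by level was left out because levels of different probesets are not comparable. The alternatives were the Cyber-T test (window 101, prior weight 10), trended and robust variances, the compared strains alone, a replicate block, dimmer probesets left out, centred arrays, array weights, each array left out, and other limits of membership. Leaving out each array from the marker lists was added after seeing the data. Members and lists were chosen with earlier results of these data known.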

Additional observations from a re-analysis of the deposited data

Results flagged for a closer look

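In 5 members the difference of CSS12 from C57BL/6J was not the same as that of BcA86 from C57BL/6J by the test of the difference between them, which is CSS12 minus BcA86 in limma. *Klhl29* was at 0.90 in CSS12 and 0.17 in BcA86 against C57BL/6J, a difference of 0.73 (adjusted p = 0.0219). *Greb1* was at 0.45 and -0.21, a difference of 0.66 (adjusted p = 0.0415). *Iah1* was at -0.77 and 0.18, a difference of -0.95 (adjusted p = 0.00465). *Rnf144a* was at -0.43 and 0.25, a difference of -0.68 (adjusted p = 0.0124). *Sox11* was at -1.40 and -0.27, a difference of -1.13 (adjusted p = 0.0152). With *Greb1*, *Iah1* and *Rnf144a* the strain means stood on opposite sides of C57BL/6J. BcA86 minus C57BL/6J did not pass in any of them (adjusted p = 0.548, 0.511 and 0.308, limma). CSS12 minus C57BL/6J passed in *Iah1* and not in *Greb1* or *Rnf144a*, so opposite effects are not established. Groups of 3 mice were too small for a search for single mice far from their group.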

How the results depend on the processing

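The counts of members called moved with the test. Against the mean of BcA86 and C57BL/6J, 4 were called, and 10 with Cyber-T, 7 with trended and robust variances, 7 with array weights and 1 with the replicate block. For CSS12 minus C57BL/6J, 3 were called, and 11 with Cyber-T, 6 with trended and robust variances, 6 without the dimmer probesets, 0 in a fit of the compared strains alone and 0 with the block. For CSS12 minus BcA86, 5 were called, and 11 with Cyber-T, 1 with the compared strains alone and 1, *Iah1*, with the block. For BcA86 minus C57BL/6J, 0 were called, and 3 with Cyber-T, 3 with trended and robust variances, 3 without the dimmer probesets, 1 with array weights and 1 with the block. Over all probesets Cyber-T called 3.44%, 2.61%, 5.26% and 2.45% in these 4 comparisons. For the other settings the calls over all probesets are not given here. Their counts therefore do not show whether the members moved more than other probesets did. The labels give replicate numbers and do not say whether they pair the mice. Deviations from the strain means had correlations of -0.107 to 0.147 between same-numbered mice and of -0.212 to 0.133 between differently numbered mice. Correlations this weak cannot decide whether the numbers mark a pairing. Leaving out 1 array gave 0 to 4, 0 to 3, 1 to 4 and 0 to 1 calls, and 18 to 28 probesets in which CSS12 lay apart (18 with all arrays), which is 13.7% to 21.4% of the members, beside 7.17% to 12.9% of all probesets. The count was 0, 0 and 1 in the CSS12 comparisons without CSS12 replicate 3. For CSS12 minus C57BL/6J it was also 0 without C57BL/6J replicate 3 and 1 without C57BL/6J replicate 1. The differences of *Sox11*, *Iah1*, *Rnf144a* and *Klhl29* kept their direction under each alternative. That of *Greb1* did so under each alternative that held it, since it was removed with the dimmer probesets. Against the mean of both strains, *Cys1* (-0.14 to 0.02 with 1 array left out) turned to 0.02 without C57BL/6J replicate 2, 0.01 without CSS12 replicate 2 and 0.00 without BcA86 replicate 1, and *Slc26a4* (-0.13 to 1.16) to -0.13 without CSS12 replicate 2. *Efcab10* (-0.27 to 0.04) turned to 0.04 without CSS12 replicate 1, *Fam228a* (-0.14 to 0.01) and *Ferd3l* (-0.09 to 0.01) to 0.01 without CSS12 replicate 2, and *Twistnb* (-0.01 to 0.07) to -0.01 without C57BL/6J replicate 1. None of these 6 genes was called in the main fit. *Cys1* was called in BcA86 minus C57BL/6J under several alternatives, Cyber-T among them. Of 696 single-gene values under an alternative, 605 kept direction and call, 57 lost the call, 26 gained it and 8 changed direction. These values belong to 44 single-gene results, of which 12 were called in the main fit. Only those 12 could lose a call, so all 57 losses fall on them. The cause of these moves was not tested.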
